A study of Mus musculus with 24 samples.

Results

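The mouse cerebellum was profiled after loss of Derlin-1 or of its paralogue Derlin-2, and the comparison is the direct difference between the knockout effect of Derlin-1 and that of Derlin-2. All 24 arrays of the series enter it, 16 from the Derlin-1 line and 8 from the Derlin-2 line, chosen by their labels alone. Every mouse was on a C57BL/6 background, and each array measured total RNA from cerebellum taken on postnatal day 28. Derlin-1 knockout and Derlin-2 knockout mice carried homozygous floxed Derl1 or homozygous floxed Derl2 together with Cre recombinase under the nestin promoter, which acts in neural progenitors and so removes the gene from the neurons and glia that descend from them, which microglia do not. Controls carried the same floxed alleles, and no Cre is named for them. The numbered Derlin-1 series (arrays 1 and 2) has a control and a knockout group given water (vehicle) and a control and a knockout group given 4-phenylbutyrate (4PBA) at 200 mg/kg by intraperitoneal injection once a day from day 14 to day 28. The lettered Derlin-1 series (arrays a and b) has the same 4 groups, but no vehicle is named for its arrays without 4PBA, which are called untreated here. The Derlin-2 line has 1 such series, with vehicle and 4PBA. Each of the 12 groups holds 2 arrays, and no label says that these came from separate animals, so the p-values below measure the spread between these samples. The effect of a knockout is the mean log2 level of the knockout arrays minus that of the controls on the same slide, averaged over the numbered and lettered series for Derlin-1. The difference of effects is the Derlin-1 effect minus the Derlin-2 effect.

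Derlins are multi-spanning proteins of the endoplasmic reticulum (ER) membrane that help to draw misfolded proteins out of the ER for destruction by the proteasome, a process called ER-associated degradation. When misfolded proteins collect in the ER, the sensors ATF6 and IRE1 (through XBP1) raise chaperone and degradation genes, while PERK, through ATF4 and CHOP (the product of Ddit3), raises genes for amino acid supply, redox balance and growth arrest. 4PBA is a small fatty acid used as a chemical chaperone and as an inhibitor of histone deacetylases. In injured brain tissue, microglia and astrocytes take up reactive states, with complement, chemokine and interferon-stimulated genes among their products.

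Promoters of 7 genes described below are shown because each carries a sequence element known for its branch of the response: the ER stress response element for the chaperone genes Hspa5 and Hsp90b1 and for Derl3 of ER-associated degradation, the ATF4 composite site for the ATF4 and CHOP genes, and the interferon-stimulated response element for the interferon genes. Each is the 250 bases before the transcription start in the RefSeq promoter table (build GRCm38.p6), written 5′ to 3′ on the gene's strand, with matches in capitals. Hspa5 lies at chr2:34771840-34772089 (plus strand), Hsp90b1 at chr10:86705445-86705694 (minus), Derl3 at chr10:75893148-75893397 (plus), Atf3 at chr1:191183334-191183583 (minus), Chac1 at chr2:119350992-119351241 (plus), Ifit3 at chr19:34583279-34583528 (plus) and Cxcl10 at chr5:92348890-92349139 (minus).
Hspa5: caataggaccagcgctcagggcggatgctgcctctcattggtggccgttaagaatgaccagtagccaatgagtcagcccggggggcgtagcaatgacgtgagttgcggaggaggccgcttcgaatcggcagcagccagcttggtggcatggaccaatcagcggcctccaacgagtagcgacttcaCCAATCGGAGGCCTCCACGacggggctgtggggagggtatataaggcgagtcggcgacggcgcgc
Hsp90b1: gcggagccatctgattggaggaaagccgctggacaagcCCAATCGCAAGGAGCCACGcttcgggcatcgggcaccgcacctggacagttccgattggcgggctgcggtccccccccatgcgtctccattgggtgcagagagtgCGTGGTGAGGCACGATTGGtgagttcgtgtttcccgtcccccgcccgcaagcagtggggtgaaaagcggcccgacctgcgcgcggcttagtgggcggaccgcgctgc
Derl3: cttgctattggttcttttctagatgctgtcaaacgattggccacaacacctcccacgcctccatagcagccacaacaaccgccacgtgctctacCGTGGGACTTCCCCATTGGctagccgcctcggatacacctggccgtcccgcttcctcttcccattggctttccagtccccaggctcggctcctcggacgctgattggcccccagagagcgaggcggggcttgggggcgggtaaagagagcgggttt
Atf3: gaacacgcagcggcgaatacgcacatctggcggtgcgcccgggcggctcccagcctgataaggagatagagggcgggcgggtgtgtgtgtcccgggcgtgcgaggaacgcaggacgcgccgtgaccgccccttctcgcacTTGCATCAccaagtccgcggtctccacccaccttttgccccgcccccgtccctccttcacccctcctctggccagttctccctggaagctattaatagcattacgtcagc
Chac1: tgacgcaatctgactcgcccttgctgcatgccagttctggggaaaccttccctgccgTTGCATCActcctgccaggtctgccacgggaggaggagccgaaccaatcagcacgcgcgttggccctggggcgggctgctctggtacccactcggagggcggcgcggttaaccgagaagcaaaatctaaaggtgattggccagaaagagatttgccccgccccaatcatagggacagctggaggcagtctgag
Ifit3: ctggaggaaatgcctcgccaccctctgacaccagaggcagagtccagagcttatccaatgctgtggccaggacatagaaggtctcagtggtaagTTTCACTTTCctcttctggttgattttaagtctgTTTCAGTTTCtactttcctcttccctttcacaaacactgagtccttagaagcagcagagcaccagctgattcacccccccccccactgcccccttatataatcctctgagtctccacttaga
Cxcl10: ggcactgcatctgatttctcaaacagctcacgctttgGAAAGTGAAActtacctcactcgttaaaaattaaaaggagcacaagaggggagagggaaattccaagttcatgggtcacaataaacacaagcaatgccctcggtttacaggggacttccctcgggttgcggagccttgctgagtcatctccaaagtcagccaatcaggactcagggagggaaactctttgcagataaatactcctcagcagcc

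The ER stress element was searched as CCAAT and CCACG with any 9 bases between them, the ATF4 composite site as TGATGNAA and the interferon element as TTTC repeated after any 2 bases, on both strands of the 250 bases before and 50 bases after each start. No printed match overlaps another. The match begins 65 bases before the start in Hspa5 and 156 bases before it in Derl3, and Hsp90b1 holds 2 matches. Of 27025 genes with a promoter in the table, 0.137% held the ER stress element, against 7 of 13 chaperone genes. The ATF4 site stood in 4.51% of all promoters, in 6 of 15 ATF4 and CHOP genes and in 5 of 8 aminoacyl-tRNA synthetase genes. The interferon element stood in 3.99% of all promoters and in 7 of 11 interferon and chemokine genes. These matches describe letters in a window and are no evidence of binding. Among measured genes with the ATF4 site, 206 of 412 had a positive Derlin-1 effect without 4PBA, with a median of 0.00. For the interferon element it was 281 of 504 (median 0.05), and for the ER stress element 18 of 21 (median 0.43). Over all genes it was 8281 of 17012 (median -0.01).

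Levels are log2 signals relative to each array's own 75th percentile, so that a difference of 1 is 2-fold and a negative level is dimmer than that percentile. Between 57.7% and 68.4% of spots were well above background and none was saturated. Cerebellar markers were measured on all 24 arrays (Cbln1 of granule neurons at 6.13 to 7.63 and Pcp2 of Purkinje cells at 7.49 to 8.02). Each series lay on 1 slide with the control arrays and the knockout arrays in different columns, so slide position and genotype cannot be told apart. The mean of 6 choroid plexus markers ranged from -2.13 to 2.84 over the arrays, with a median difference of effects of -0.99 without 4PBA and -1.31 with it. Without 4PBA their median effect was -0.65 in the numbered Derlin-1 series, -0.72 in the lettered series and 0.26 in the Derlin-2 line. With 4PBA it was 1.68, -0.41 and 1.95. The part of these markers in the results was not tested. With 2 arrays a group, precision is limited, and in whole tissue a loss of cells of a type and less RNA per cell cannot be told apart.

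From their groups 2 arrays stood apart. Derl2 stood at 1.43, 1.54, 1.58 and 1.40 in the Derlin-2 line's controls and at 0.48, 0.18 and 0.24 in 3 of its knockouts, but at 1.72 on Derlin-2 KO vehicle 1, as the label has it. A second Derl2 probe gave the same order, with -0.40 on that array against -1.97, -2.11 and -2.40 on the other knockouts and -0.57 to -0.41 in the controls. Derlin-1 KO 4PBA b, again by its label, lay with its controls for the genes that separated every other Derlin-1 knockout: Derl3 stood at -2.27 there, against 0.17 on its partner. That array was singled out by the very genes compared here, so results without it are not independent of them. The Derl1 probe, at 0.14 to 1.23 over all arrays, did not separate Derlin-1 knockouts from controls (effect without 4PBA -0.33 ± 0.15, limma adjusted p = 0.196 over all probes) and checks no label.

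Each effect was fitted in 1 limma model over all 24 arrays and 17013 genes, in which the gap between the 2 lettered knockout 4PBA arrays enters the spread of every comparison. The difference without 4PBA uses none of those 2 arrays for its size, only for its error. For Ddit3 that difference of 1.52 has a standard error of 0.36 with all 24 arrays and of 0.13 when only the 12 arrays without 4PBA are fitted. Calls of the difference without 4PBA are therefore given from both fits, and, for results that include 4PBA, also with both arrays that stood apart left out. A called gene has a Benjamini-Hochberg adjusted p under 0.05 over all genes.

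Counts of called genes were unequal between the lines. Without 4PBA, 1787 genes (10.5%) were called in the Derlin-1 line, 884 higher and 903 lower, and 29 (0.17%) in the Derlin-2 line, 3 higher and 26 lower, of which 11 were above background on every array without 4PBA. The 12 arrays without 4PBA alone called 832 higher and 603 lower in the Derlin-1 line, and 1 higher and 7 lower in the Derlin-2 line. In the set of 11 arrays that also leaves out Derlin-2 KO vehicle 1, the Derlin-2 line had 11 higher and 15 lower. Calls within a line are those over 24 arrays where no other fit is named. These counts are not a test of the difference, and the Derlin-2 effect rests on 4 arrays where the Derlin-1 effect has 8, with median standard errors of 0.155 and 0.11. The direct test called 14 genes (0.0823%) without 4PBA, 32 (0.188%) with 4PBA and 23 (0.135%) over both injections. By the scanner's flag, 1, 5 and 3 of these were above background wherever compared, counting Gm8013 and Ntn4, which each lack a usable value on 1 array because the spot was an outlier. From the 12 arrays without 4PBA alone, 118 genes (0.694%) differed, 99 with the higher effect in the Derlin-1 line and 19 with the lower, and 90 of the 118 were above background on every array by the same flag. Leaving out the array labelled Derlin-2 KO vehicle 1 as well left 85 genes (0.503%). With both arrays that stood apart left out of the full set, 283 genes (1.67%) differed without 4PBA, 124 (0.73%) with it and 646 (3.83%) over both.

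**Figure D1:**
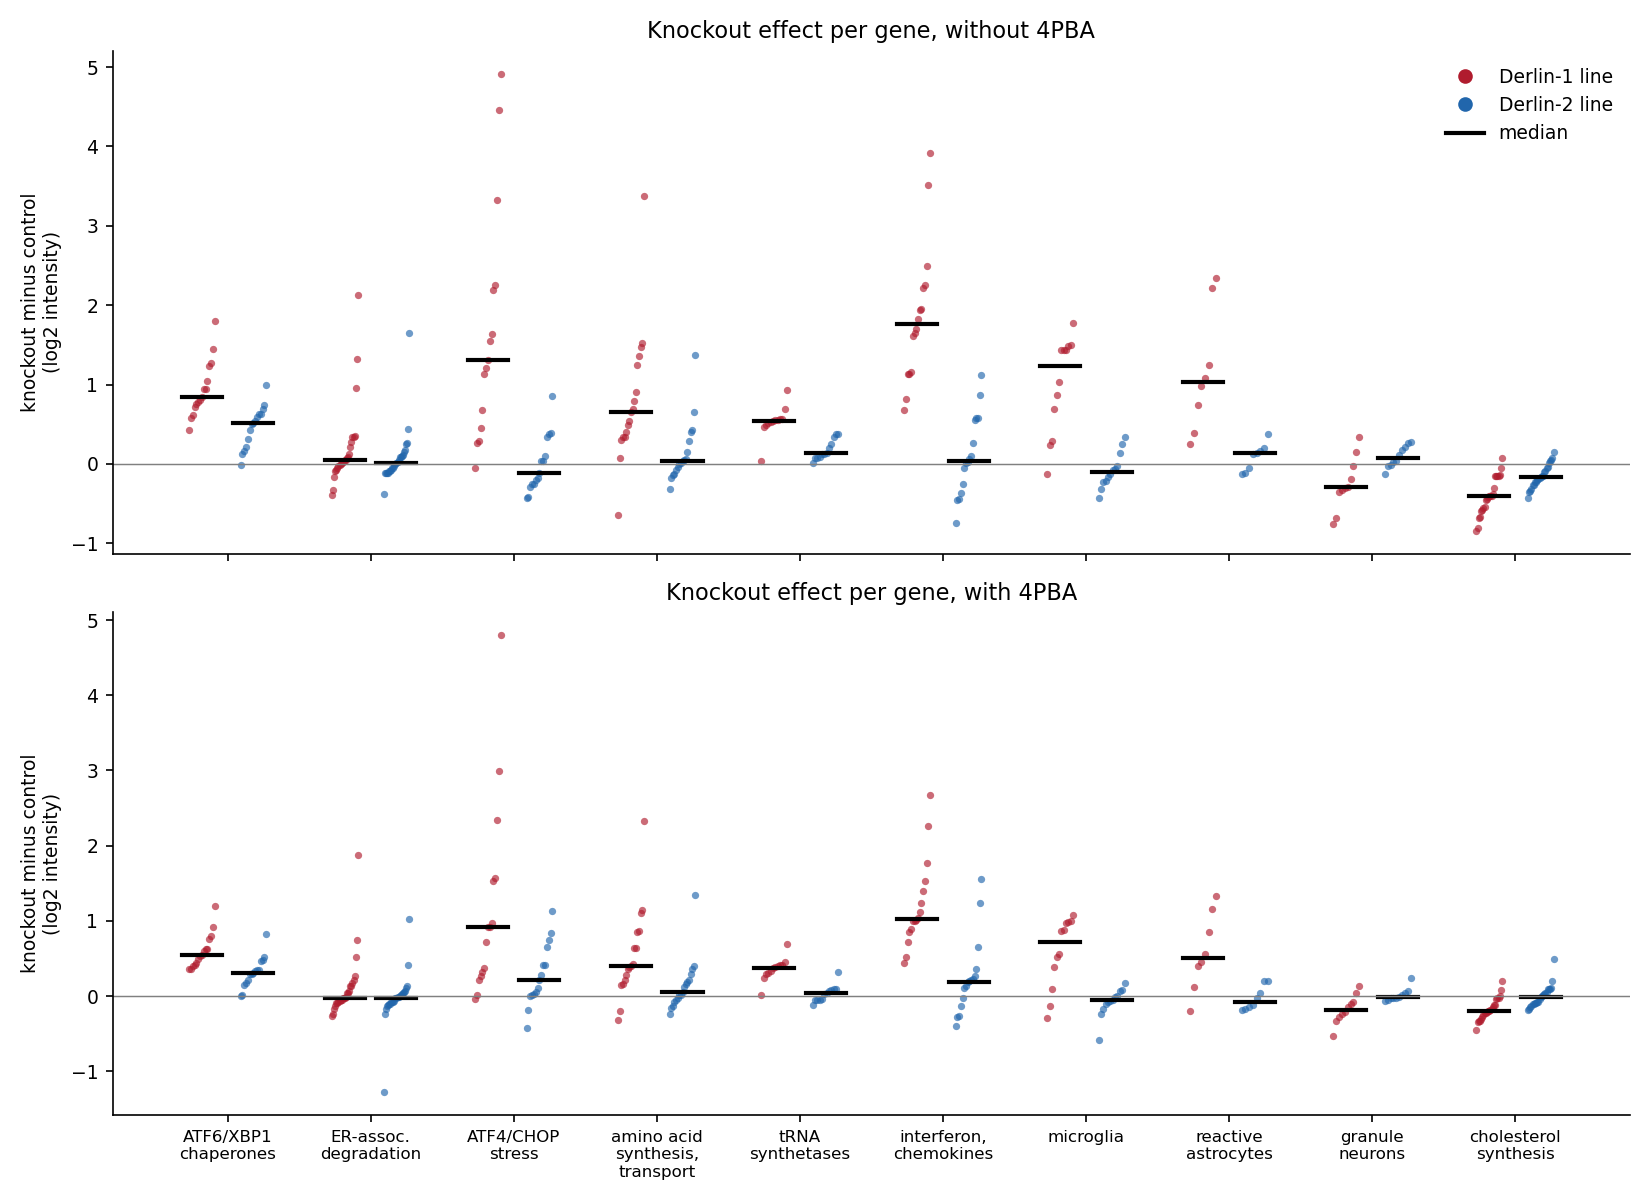
Knockout effect (log2, knockout minus control within slide) of every measured gene of 10 gene lists, without 4PBA in the upper panel and with 4PBA in the lower, Derlin-1 line in red and Derlin-2 line in blue; each point is a gene and each bar the list's median. Chaperone genes lie above 0 by their median in both lines without 4PBA (0.84 and 0.51), while ATF4 and CHOP genes (1.31 and -0.12), interferon and chemokine genes (1.76 and 0.04) and microglia markers (1.24 and -0.10) lie above 0 by their median in the Derlin-1 line and near it in the Derlin-2 line.

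The ER chaperone genes had positive effects in most members in both lines. Without 4PBA all 15 rose in the Derlin-1 line (5.2% of all genes were called higher there), with a median of 0.84 against -0.01 over all genes. In the Derlin-2 line 14 of 15 had a positive effect with a median of 0.51, none was called, and 8 had an unadjusted p under 0.05 in the positive direction, against 3.84% of all genes. No member was called for a difference of effects in either fit without 4PBA, and the median difference was 0.61, with 14 of 15 positive. In the set of 11 arrays without Derlin-2 KO vehicle 1, which kept Derl2, the median difference was 0.32 with 10 of 15 positive, and the Derlin-2 median was 0.74. Hspa5 encodes BiP, the most abundant ER chaperone and a brake on the stress sensors.

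In the numbered Derlin-1 series Hspa5 stood at 4.35 and 4.52 in the vehicle controls and at 5.75 and 5.55 in the knockouts. Lettered controls stood at 4.28 and 4.18 and lettered untreated knockouts at 5.33 and 5.63. Derlin-2 vehicle controls stood at 4.31 and 4.54 and the knockouts at 4.76 and 5.33. Knockouts lay above controls in all 3 series without overlap, and the lower Derlin-2 knockout is the one that kept Derl2. The Hspa5 effect was 1.23 ± 0.18 (SE, limma adjusted p = 0.00248) for Derlin-1 and 0.62 ± 0.26 (adjusted p = 0.574) for Derlin-2, and the difference of 0.61 ± 0.31 was not called (adjusted p = 0.409). Without both arrays that stood apart, the Derlin-2 effect on Hspa5 was 0.91 ± 0.17 (adjusted p = 0.0377) and the difference 0.32 ± 0.20 (adjusted p = 0.517). Hsp90b1, the ER member of the HSP90 family, gave 0.78 ± 0.15 and 0.70 ± 0.21, with a difference of 0.09 ± 0.26 (adjusted p = 0.923). Its Derlin-2 effect without both arrays was 0.94 ± 0.15 (adjusted p = 0.0181). A difference that misses the threshold does not show that the effects are equal.

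Sdf2l1, a partner of the ER chaperone complex, had the largest chaperone effect in each line without 4PBA. It stood at -1.43 and -1.13 in the numbered vehicle controls against 0.82 and 0.52 in the knockouts, and at -0.38 and -0.33 in the lettered controls against 0.80 and 1.80. The Derlin-2 values were -1.46 and -1.38 in vehicle controls against -0.83 and -0.02 in knockouts. The groups did not overlap in any series, and the effects were 1.80 ± 0.29 (adjusted p = 0.00348) and 0.99 ± 0.42 (adjusted p = 0.584). Not every chaperone gene was alike in the Derlin-2 line: Dnajb9, an ER co-chaperone induced through XBP1, had an effect of 0.80 ± 0.15 in the Derlin-1 line and -0.01 ± 0.21 in the Derlin-2 line. Its values on the Derlin-2 arrays without 4PBA were 1.71 and 1.76 in controls and 1.62 and 1.84 in knockouts, which overlap. The Dnajb9 difference of 0.81 had an adjusted p of 0.196 over 24 arrays and of 0.0529 over the 12 arrays without 4PBA. Over both injections and without both arrays, Dnajb9 (0.73), Dnajc3 (0.59) and Creld2 (0.79) were called for a larger effect in the Derlin-1 line, 3 of 15 chaperone genes, where 2.3% of all genes were called higher. Dnajc3 encodes an inhibitor of PERK that also acts as an ER co-chaperone.

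With 4PBA the chaperone medians were 0.55 in the Derlin-1 line and 0.31 in the Derlin-2 line. The mean of the 15 genes on each knockout array, relative to its slide's controls of the same injection, was above both controls on all 4 arrays labelled Derlin-2 knockout: 0.28 (the array that kept Derl2) and 0.66 with vehicle and 0.22 and 0.42 with 4PBA. Derlin-1 knockouts lay at 0.75 to 1.16 without 4PBA and at 0.76, 0.92 and 0.79 with it, apart from the array with the label Derlin-1 KO 4PBA b at -0.05. The lowest of the other Derlin-1 knockouts lay above the highest Derlin-2 knockout.

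**Figure D2:**
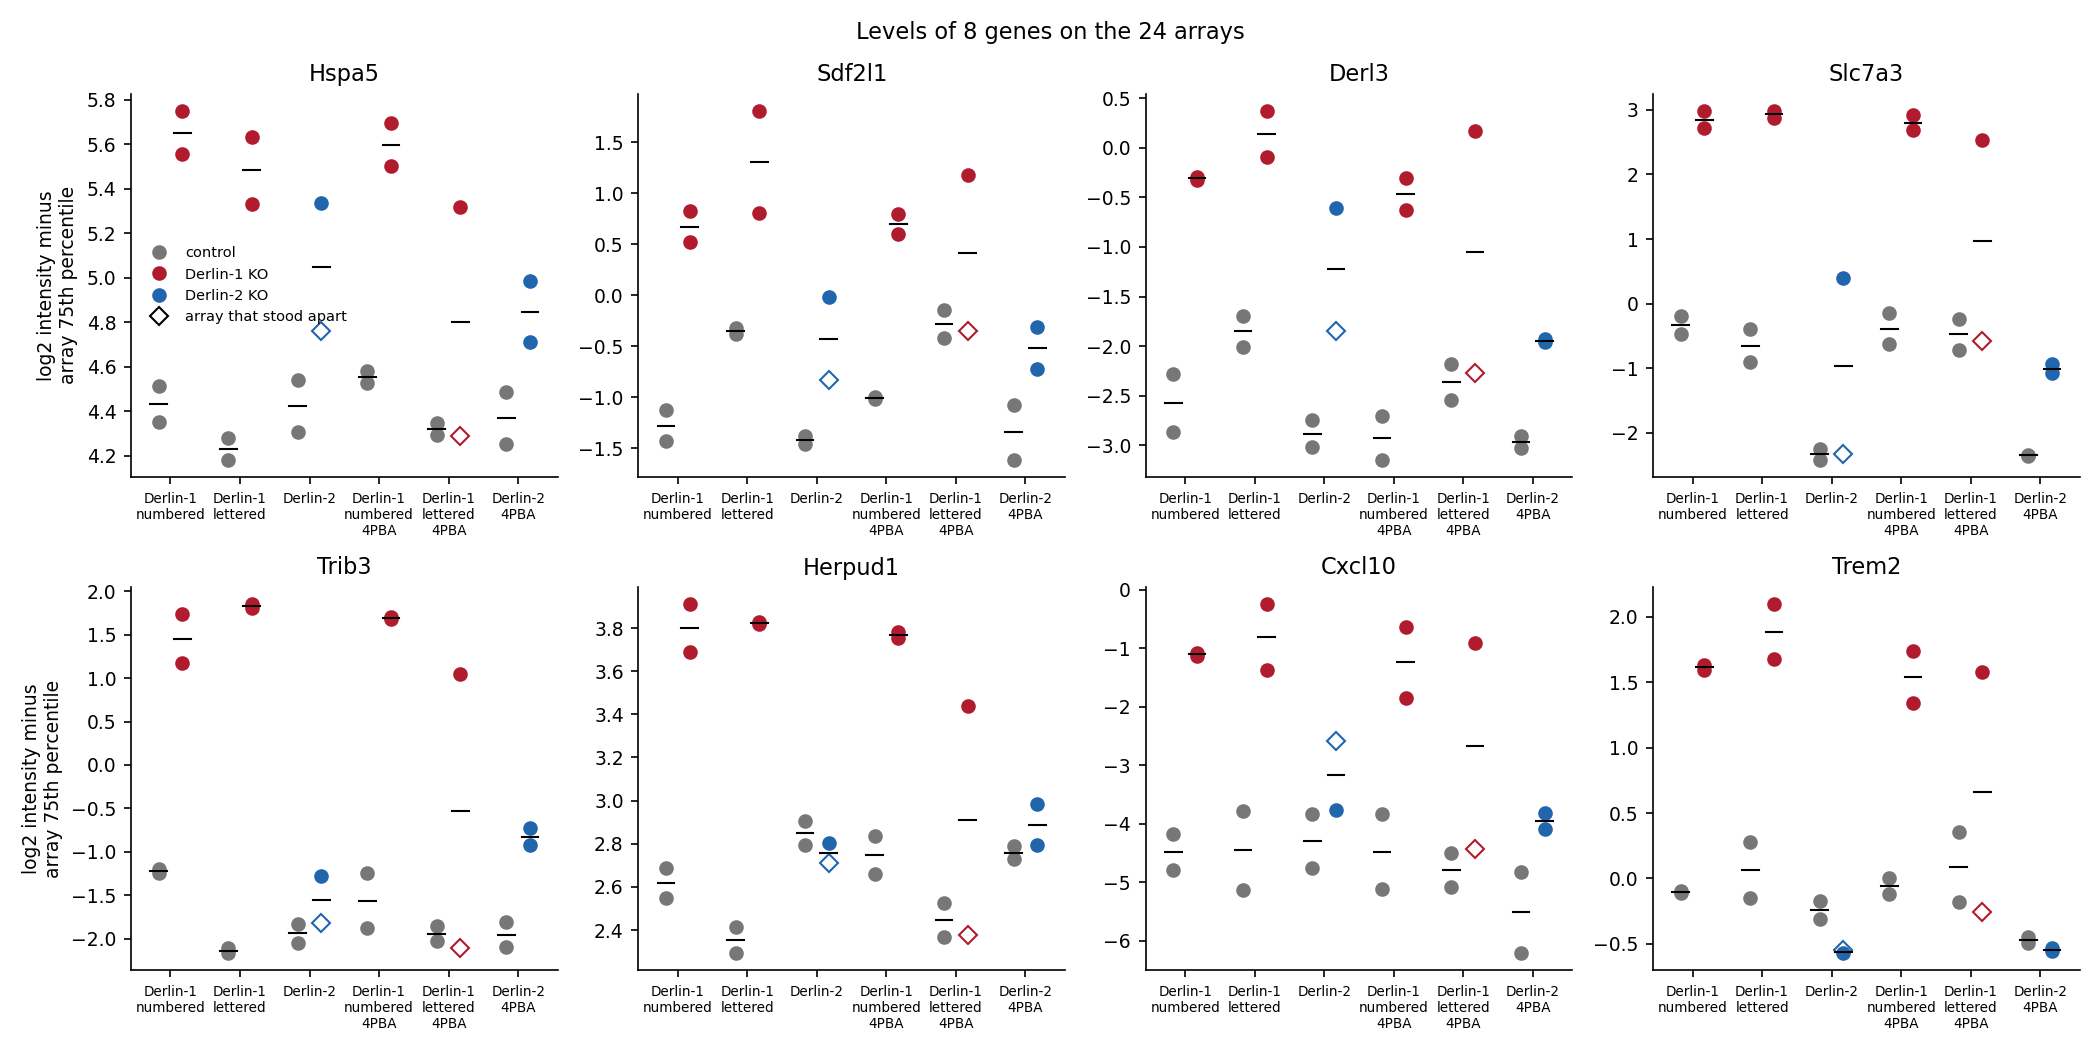
Level of 8 genes on each of the 24 arrays (log2 signal relative to the array's 75th percentile), by series, genotype and injection; points are arrays, dashes the mean of the 2 arrays of a group, and diamonds the 2 arrays that stood apart. Apart from the array with the label Derlin-1 KO 4PBA b, Hspa5, Sdf2l1 and Derl3 lie above their controls on the arrays labelled knockout of all 3 slides, while Herpud1 and Trem2 do so on the Derlin-1 slides and, without 4PBA, lie within or below their controls on the Derlin-2 slide.

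Within ER-associated degradation, the third Derlin and the PERK-responsive Herpud1 did not behave alike. Derl3, whose promoter holds the ER stress element shown above, rose in the Derlin-1 line and had an effect of similar size in the Derlin-2 line. Its vehicle controls stood at -2.87 and -2.29 in the numbered series and its knockouts at -0.32 and -0.30, and the lettered values were -2.01 and -1.69 against -0.09 and 0.37. On the Derlin-2 arrays Derl3 stood at -3.01 and -2.75 in vehicle controls, at -1.85 and -0.61 in knockouts, and with 4PBA at -3.03 and -2.91 against -1.93 and -1.96. Every array labelled Derlin-2 knockout, the one that kept Derl2 (-1.85) included, lay above every Derlin-2 control. The effects without 4PBA were 2.13 ± 0.39 (adjusted p = 0.00569) and 1.65 ± 0.56 (adjusted p = 0.453), a difference of 0.47 ± 0.68. Without the array labelled Derlin-2 KO vehicle 1 the sign of that difference turned, to -0.15. Over both injections without both arrays, the Derl3 effect in the Derlin-2 line was 1.65 ± 0.18 (adjusted p = 0.00156) and the difference 0.66 ± 0.22 was not called (adjusted p = 0.126). With 4PBA in that reduced set the difference was 1.47 ± 0.29 (adjusted p = 0.0456).

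Herpud1, a membrane protein that links the HRD1 ubiquitin ligase to its substrates and is induced by ATF4 as well as XBP1, differed between the lines. It stood at 2.69 and 2.55 in numbered vehicle controls and at 3.91 and 3.69 in knockouts, and at 2.29 and 2.41 against 3.83 and 3.82 in the lettered series. In the Derlin-2 line it stood at 2.80 and 2.90 in vehicle controls and at 2.71 and 2.80 in knockouts. The Derlin-1 groups lay well apart, while the Derlin-2 knockouts lay within or below their controls. Herpud1 gave effects of 1.33 ± 0.16 (adjusted p = 0.00207) and -0.09 ± 0.22 (adjusted p = 0.967). The difference of 1.42 ± 0.27 had the smallest adjusted p of any list member in this comparison over 24 arrays (0.0878), and with the 12 arrays without 4PBA it was called (SE 0.13, adjusted p = 0.00542). Without both arrays the Herpud1 difference was 0.88 ± 0.14 with 4PBA (adjusted p = 0.0124). Among the 25 degradation genes, 7 rose and 1 fell in the Derlin-1 line without 4PBA (5.2% of all genes were called higher and 5.31% lower; 4 and 1 in the set of 11 arrays, where 4.05% of all genes were called higher and 2.76% lower), and the median difference was 0.09 over 24 arrays and 0.00 in the set of 11. Sel1l, the scaffold of the HRD1 complex, had effects of 0.36 and 0.45 without 4PBA. In the Derlin-2 line its mean stood at 4.35 in vehicle controls and at 4.80 in knockouts (SD 0.36). With 4PBA the Derlin-2 means were 4.35 in controls and 4.41 in knockouts.

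The ATF4 and CHOP genes had the largest median difference among the ER stress lists. Without 4PBA 11 of 15 rose in the Derlin-1 line (5.2% of all genes were called higher) with a median of 1.31, whereas in the Derlin-2 line 7 were higher and 8 lower, with a median of -0.12 (-0.05 in the set of 11 arrays) and none called. With 4PBA 13 of 15 were higher in the Derlin-2 line, with a median of 0.21 and none called. All 15 differences without 4PBA were positive, with a median of 1.50 against 0.00 over all genes, and 12 had an unadjusted p under 0.05 (7.35% of all genes were higher at that level). None was called over 24 arrays. In the 12 arrays without 4PBA 8 of 15 were called higher, where 0.582% of all genes were: Nupr1 (1.31), Ddit3 (1.52), Cebpb (1.89), Chac1 (2.08), Atf3 (2.67), Trib3 (2.93), Gdf15 (3.61) and Fgf21, for which no size is given because it was not well above background on any Derlin-2 array. Without the array labelled Derlin-2 KO vehicle 1 as well, 7 remained called (0.384% of all genes were called higher), all but Chac1 (adjusted p = 0.109). Fgf21 and Gdf15 encode secreted stress hormones, Chac1 an enzyme that degrades glutathione, and Nupr1, Atf3 and Cebpb are stress-induced nuclear regulators.

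Trib3, a pseudokinase induced by CHOP, stood at -1.25 and -1.20 in numbered vehicle controls and at 1.73 and 1.17 in knockouts. In the lettered series it stood at -2.17 and -2.11 in controls and at 1.81 and 1.85 in knockouts. On the Derlin-2 arrays it stood at -2.06 and -1.83 in vehicle controls and at -1.82 and -1.28 in knockouts. The lower of these knockouts, the array labelled Derlin-2 KO vehicle 1, lay beside the higher control, and the other lay above both. The Trib3 effects were 3.32 ± 0.45 (adjusted p = 0.00207) and 0.39 ± 0.63 (adjusted p = 0.935), and the difference was 2.93, with an SE of 0.77 (adjusted p = 0.139) over 24 arrays and of 0.26 (adjusted p = 0.00525) over 12. With 4PBA the Derlin-2 knockouts stood at -0.92 and -0.73 against -1.81 and -2.10, and over both injections without both arrays Trib3 rose in the Derlin-2 line too, by 0.89 ± 0.16 (adjusted p = 0.0378), a smaller effect than in the Derlin-1 line by 2.33 ± 0.20 (adjusted p = 0.000197).

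Ddit3 itself stood at -0.67 and -0.54 in the numbered vehicle controls and at 0.72 and 0.59 in the knockouts, and at -0.25 and -0.39 against 1.55 and 1.50 in the lettered series. The Derlin-2 controls stood at -0.37 and -0.45 and the knockouts at -0.30 and -0.46. Those Derlin-2 groups overlapped. The difference of 1.52 ± 0.13 was called in the 12 arrays without 4PBA (adjusted p = 0.0044). Gdf15 stood between -4.63 and -3.82 in the 4 Derlin-1 controls without 4PBA and between 0.22 and 0.67 in the 4 knockouts. In the Derlin-2 line Gdf15 stood at -5.26 and -5.01 in vehicle controls and at -4.35 and -4.21 in knockouts, so that all arrays labelled knockout in both lines lay above their controls, by 4.46 ± 0.74 in the Derlin-1 line (adjusted p = 0.00371) and by 0.86 ± 1.05 in the Derlin-2 line (adjusted p = 0.91). Fgf21 was well above background on 8 of the 24 arrays, and its level elsewhere was not well above background.

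Genes for amino acid supply and tRNA charging, which ATF4 also serves, had smaller median differences (0.62 and 0.38, or 0.50 and 0.21 in the set of 11 arrays). Of 17 measured amino acid genes 10 rose and 1 fell in the Derlin-1 line without 4PBA (5.2% of all genes were called higher and 5.31% lower), with a median of 0.66 against 0.04 in the Derlin-2 line. The synthetase medians were 0.55 and 0.13, and 11 of 12 synthetase genes rose in the Derlin-1 line (5.2% of all genes), the exception being Wars at 0.04. The Derlin-2 medians in the set of 11 arrays were 0.19 for amino acid genes and 0.28 for synthetases. Over both injections without both arrays, 7 of 17 amino acid genes were called for a higher Derlin-1 effect and 1 for a lower one (2.3% and 1.52% of all genes), among them Shmt2 of mitochondrial one-carbon metabolism (0.91) and Phgdh, the first enzyme of serine synthesis (0.64). In the 12 arrays without 4PBA, Slc7a1 (1.09, adjusted p = 0.0481) was the 1 amino acid gene called, and it lost its call without the array labelled Derlin-2 KO vehicle 1 (adjusted p = 0.124). The gene with the lower effect was Slc7a5, a large neutral amino acid transporter, which fell in the Derlin-1 line by 0.64 ± 0.14 without 4PBA (adjusted p = 0.0106) and had an effect of 0.00 ± 0.19 in the Derlin-2 line.

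Slc7a3, a cationic amino acid transporter, was the member of this list with the largest effect in both lines. It stood at -0.19 and -0.47 in numbered vehicle controls and at 2.98 and 2.72 in knockouts, and at -0.40 and -0.91 against 2.99 and 2.88 in the lettered series. On the Derlin-2 arrays it stood at -2.42 and -2.25 in vehicle controls and at -2.33 and 0.40 in knockouts, and with 4PBA at -2.34 and -2.36 against -0.94 and -1.08. Apart from the array labelled Derlin-2 KO vehicle 1, every Derlin-2 knockout lay more than 1 above every Derlin-2 control. Slc7a3 effects were 3.38 ± 0.57 (adjusted p = 0.00387) and 1.37 ± 0.80 (adjusted p = 0.719) without 4PBA. Without both arrays the Derlin-2 effect over both injections was 2.04 ± 0.17 (adjusted p = 0.000196), and the Derlin-1 effect was larger by 1.20 ± 0.20 (adjusted p = 0.00649).

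The interferon and chemokine genes had the largest median difference of the lists without 4PBA. Of 16 genes 15 rose in the Derlin-1 line (5.2% of all genes were called higher), with a median of 1.76, and in the Derlin-2 line the median was 0.04 (-0.05 in the set of 11 arrays) with none called. All 16 differences were positive, with a median of 1.82, and 10 had an unadjusted p under 0.05 (7.35% of all genes were higher at that level). In the 12 arrays without 4PBA 3 were called, where 0.582% of all genes were called higher: Ccl12 (2.69, adjusted p = 0.0434), Ccl5 (2.96, adjusted p = 0.0245) and Ccl3 (adjusted p = 0.0105), all chemokines that attract leukocytes. Ccl12 lost its call without the array labelled Derlin-2 KO vehicle 1 (adjusted p = 0.092). Ccl3 was at least 12.3-fold higher in Derlin-1 knockouts without 4PBA, since it was not well above background in any of the 4 controls, and no size is given for its difference between the lines. Ccl4 was not well above background on any Derlin-2 array with 4PBA. Its Derlin-2 effect over both injections, used below for shared genes, therefore rests in part on background signal.

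Cxcl10, a chemokine induced by interferons, stood at -4.78 and -4.18 in numbered vehicle controls and at -1.09 and -1.13 in knockouts, and at -3.78 and -5.13 against -0.25 and -1.37 in the lettered series. In the Derlin-2 line it stood at -4.75 and -3.83 in vehicle controls and at -2.58 and -3.77 in knockouts. All arrays labelled knockout lay above their slide's controls; in the Derlin-2 line the higher (-2.58) was the one that kept Derl2, and the other cleared them by a narrow margin. The Cxcl10 difference of 2.39 ± 1.12 was not called (adjusted p = 0.357), nor in the 12 arrays alone (adjusted p = 0.198). Over both injections without both arrays it was 2.49 ± 0.61 (adjusted p = 0.0414), and 11 of the 16 genes were called (2.3% of all genes were called higher). Ifit3, an interferon-stimulated gene whose promoter holds 2 of the elements shown, rose in the Derlin-1 line by 1.66 ± 0.36 (adjusted p = 0.0115) and had an effect of -0.45 ± 0.51 in the Derlin-2 line. With 4PBA and both arrays left out, the list's median difference was 1.44 and none of the 16 was called, although 14 had an unadjusted p under 0.05 (5.27% of all genes were higher at that level).

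**Figure D3:**
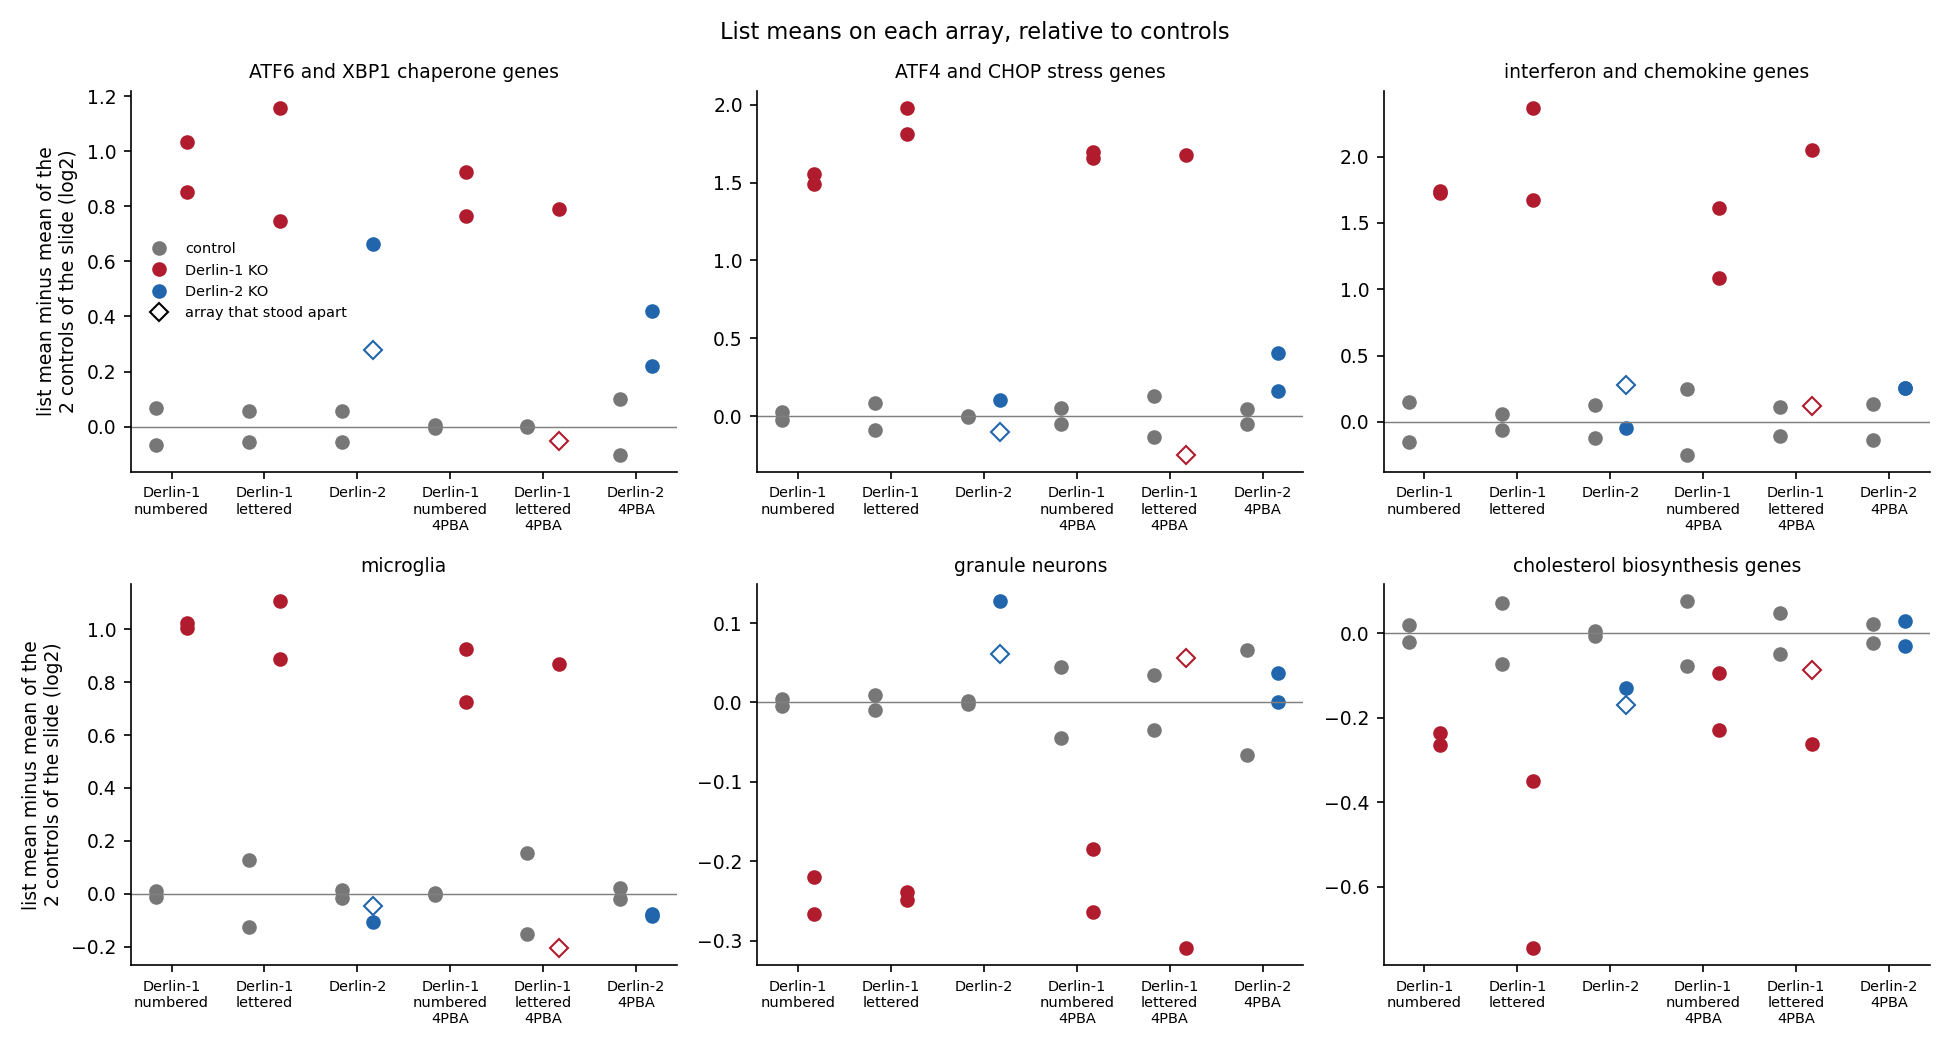
Mean level of 6 gene lists on each array minus the mean of the 2 controls of the same slide and injection (log2), by series, genotype and injection; each point is an array and diamonds mark the 2 arrays that stood apart. The ATF4 and CHOP list lies at 1.49 to 1.98 on 7 of the 8 Derlin-1 knockouts and at -0.25 on the array with the label Derlin-1 KO 4PBA b, and at -0.10 to 0.41 on the 4 arrays labelled Derlin-2 knockout.

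Markers of microglia, which do not descend from neural progenitors, rose in the Derlin-1 line, and none was called in the Derlin-2 line. Without 4PBA 9 of 12 rose in the Derlin-1 line (5.2% of all genes) with a median of 1.24, and the Derlin-2 median was -0.10 (-0.18 in the set of 11 arrays). In the 12 arrays without 4PBA 6 of 12 were called for a higher Derlin-1 effect (0.582% of all genes), C1qa (1.49), Tyrobp (1.52), C1qb (1.60), C1qc (1.66), Aif1 (1.70) and Trem2 (2.09), and the same 6 were called without the array labelled Derlin-2 KO vehicle 1. Over both injections 9 of 12 rose in the Derlin-1 line, where 7.4% of all genes were called higher, and the others were P2ry12 (-0.03), Tmem119 (0.19) and Itgam (-0.12). P2ry12 and Tmem119 are markers of resting microglia, whereas Trem2, Tyrobp and the complement subunits are raised in activated ones. On single arrays the list mean lay at 0.73 to 1.10 above the slide's controls on 7 Derlin-1 knockouts, at -0.20 on the array with the label Derlin-1 KO 4PBA b, and at -0.11 to -0.05 on the 4 arrays labelled Derlin-2 knockout.

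Trem2, a lipid-sensing receptor of microglia, stood at -0.10 and -0.11 in numbered vehicle controls and at 1.63 and 1.60 in knockouts, and at 0.28 and -0.15 against 2.09 and 1.68 in the lettered series. On the Derlin-2 arrays it stood at -0.17 and -0.31 in vehicle controls and at -0.55 and -0.57 in knockouts. With 4PBA the Derlin-2 values were -0.45 and -0.50 against -0.55 and -0.53. The Derlin-2 knockouts thus lay just below their controls, in the direction opposite to the Derlin-1 knockouts. Trem2 effects were 1.77 ± 0.28 (adjusted p = 0.003) and -0.32 ± 0.39 (adjusted p = 0.91), and the difference was 2.09 with an SE of 0.48 (adjusted p = 0.11) over 24 arrays and of 0.21 (adjusted p = 0.00732) over 12. C1qb, a subunit of complement C1q, gave a difference of 1.60 ± 0.19 in the 12 arrays (adjusted p = 0.0128). Gpnmb, a glycoprotein of lipid-laden phagocytes outside the fixed list, was called for the difference over both injections in the full fit (1.28 ± 0.22, adjusted p = 0.0379). Its Derlin-1 effect was 1.09 ± 0.13 and its Derlin-2 effect -0.20 ± 0.18.

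Reactive astrocyte genes had medians of 1.04 in the Derlin-1 line, where 4 of 8 rose (5.2% of all genes were called higher), and 0.13 in the Derlin-2 line (-0.04 in the set of 11 arrays). Gfap, the intermediate filament of astrocytes, stood at 1.48 and 1.84 in numbered vehicle controls and at 2.83 and 2.87 in knockouts, and at 2.11 and 2.05 against 3.47 and 3.28 in the lettered series. The Derlin-2 values were 1.72 and 1.68 in vehicle controls and 1.67 and 1.98 in knockouts, which overlap. Its difference of 1.12 ± 0.18 was called in the 12 arrays (adjusted p = 0.0405), as was that of the complement gene C4b (1.84 ± 0.23, adjusted p = 0.0137). Without the array labelled Derlin-2 KO vehicle 1 the Gfap difference was 0.97 ± 0.19 and lost its call (adjusted p = 0.0975). General astrocyte and Bergmann glia markers had a median difference of 0.20, with medians of -0.05 and -0.21 (-0.35 in the Derlin-2 line in the set of 11 arrays).

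Granule neuron markers and cholesterol genes had negative medians in the Derlin-1 line. Of 10 granule markers 4 fell without 4PBA (5.31% of all genes were called lower), with a median of -0.30 against 0.08 in the Derlin-2 line. Gabra6, the granule-cell subunit of the GABA-A receptor, stood at 4.31 and 4.21 in numbered vehicle controls and at 3.64 and 3.54 in knockouts, and at 4.68 and 4.59 against 3.58 and 3.99 in the lettered series. The Derlin-2 values were 4.42 and 4.36 in vehicle controls and 4.42 and 4.34 in knockouts. Derlin-1 knockouts lay below every control of both series, and the Derlin-2 groups overlapped. The Gabra6 effects were -0.76 ± 0.14 (adjusted p = 0.00598) and -0.01 ± 0.20, with a difference of -0.75 (adjusted p = 0.202 over 24 arrays and 0.0962 over 12). Over both injections without both arrays 4 of 10 were called lower (1.52% of all genes), Gabra6 (-0.68), Cbln1 (-0.60), Neurod1 (-0.52) and Grin2c (-0.42). Purkinje cell markers had medians of -0.01 and -0.06 and a median difference of 0.04.

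Cholesterol synthesis genes had medians of -0.41 and -0.16, and 15 of 23 fell in the Derlin-1 line without 4PBA (5.31% of all genes were called lower), against 9 in the 12 arrays alone (3.54%) and 6 in the set of 11 (2.76%). Their median difference was -0.28 (-0.25 in the set of 11 arrays). Over 24 arrays 6 of 23 had an unadjusted p under 0.05 in that direction, against 6.64% of all genes. Over the 12 arrays alone 2 of 23 did, against 973 of 17011 genes. Over both injections without both arrays Tm7sf2, a sterol reductase, was called lower (-0.49). The 2 Derlin-1 series differed in size here, with list medians of -0.18 in the numbered and -0.56 in the lettered arrays without 4PBA. The numbered median lay beside the Derlin-2 median of -0.16.

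Over both injections, no gene passed the joint test for a shared effect (the larger of the 2 lines' p-values, adjusted over all genes), while 362 genes (2.13%) had an unadjusted p under 0.05 in both lines in the same direction, 150 higher and 212 lower, and 90 did so in opposite directions. Chaperone genes made up 8 of the 150: Calr, Canx, Hsp90b1, Hspa5, Pdia3, Pdia6, Sdf2l1 and Xbp1. Derl3, Sel1l and Slc7a3 were also among them over all 24 arrays, and no ATF4 and CHOP, interferon, microglia or granule neuron gene was. Of the 21 measured genes with the ER stress element in their promoter 9 were shared and higher, none lower. Over all genes 150 of 16985 were shared and higher. Calr, Canx, Derl3, Hsp90b1, Hspa5 and Pdia6, counted above, were among those 9. Of 412 measured genes with the ATF4 site 3 were shared and higher and 5 lower, and of 504 with the interferon element 6 and 2. Without both arrays 526 genes (3.11%) met the same rule, and 3 passed the joint test: Slc7a3 (adjusted p = 0.000541), Derl3 (adjusted p = 0.00778) and Ppm1n, a protein phosphatase (adjusted p = 0.0266). In that set 231 genes were shared and higher and 295 lower. The higher ones included 12 of 15 chaperone genes, 5 of 15 ATF4 and CHOP genes (Atf4, Atf5, Chac1, Gdf15 and Trib3), 5 of 17 amino acid genes (Aldh1l2, Asns, Shmt2, Slc7a1 and Slc7a3), 5 of 12 synthetases, 3 of 25 degradation genes, the chemokine Ccl4 and the granule marker Calb2, but no microglia marker.

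By the largest smaller effect of the 2 lines, the shared genes that were higher included Npr3, the natriuretic peptide clearance receptor (0.68 in the Derlin-1 line and 0.93 in the Derlin-2 line), Mndal (0.80 and 0.73), Il18bp, a soluble binder of interleukin 18 (0.63 and 0.70), and Ezr, a linker of membrane and actin (0.67 and 0.57). Those that were lower included Tff3, a trefoil peptide (-0.80 and -0.79), the protease Klk6 (-0.92 and -0.67), Plk5 (-0.82 and -0.58) and Slc2a5, a fructose transporter of microglia (-0.56 and -0.61). Klk6 stood at 0.35 and 0.26 in the Derlin-2 vehicle controls and at 0.10 and -0.46 in the knockouts, and with 4PBA at 0.33 and 0.45 against -0.60 and -0.33. For Klk6 every array labelled Derlin-2 knockout was below every Derlin-2 control, and the one that kept Derl2 (0.10) was nearest to them. Klk6 is made mainly by oligodendrocytes, and 4 of 11 oligodendrocyte markers were shared and lower (Cnp, Mag, Mog and Opalin), against 212 of 16985 genes, and 3 of 11 without both arrays that stood apart (Cnp lost), with Mag at -0.26 and -0.34 over both injections. The oligodendrocyte list was not lower in every group. Without 4PBA its median was 0.05 with 8 of 11 higher in the numbered Derlin-1 series, -0.34 in the lettered series and -0.09 in the Derlin-2 line, and with 4PBA it was -0.17, -0.21 and -0.32.

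**Figure D4:**
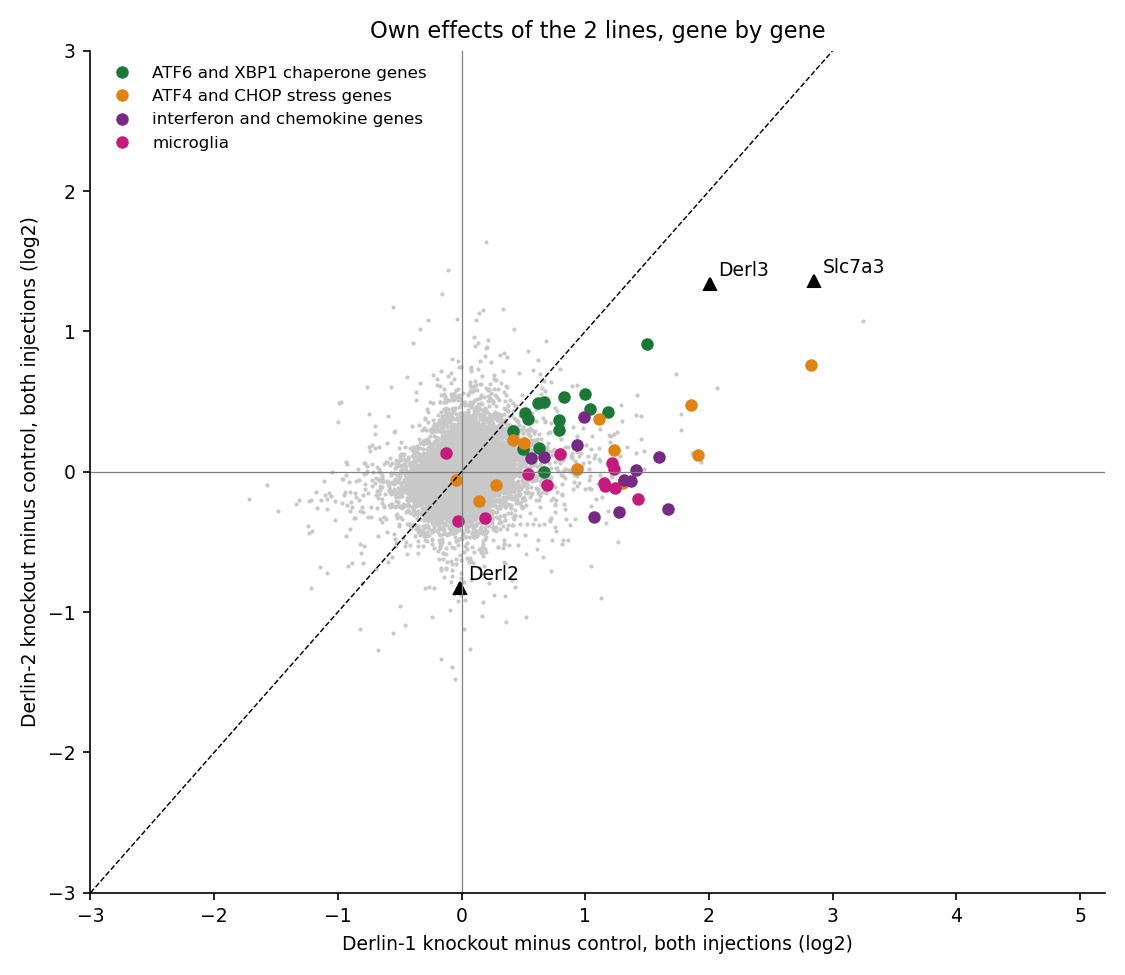
Knockout effect over both injections in the Derlin-1 line (x axis, log2) against that in the Derlin-2 line (y axis, log2), 1 point per gene measured in every group, with fixed lists in colour and the dashed line at equal effects. Most chaperone genes lie above 0 on both axes and below the dashed line, and ATF4 and CHOP, interferon and microglia genes spread along the x axis near 0 on the y axis; over 14647 genes Pearson's r was 0.23.

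Genes called in the Derlin-1 line without 4PBA over 24 arrays were read in the other groups, which entered that call through the shared spread and not through the size of the effect. Of the 884 that were higher, 96.7% were higher in the Derlin-1 line with 4PBA (45.2% of all genes). In the Derlin-2 line 59.2% of them were higher with vehicle (48.5% of all genes) and 63.1% with 4PBA (42% of all genes); with vehicle their median was 0.06 and 6% had an unadjusted p under 0.05 in that direction (3.84% of all genes). The difference with 4PBA was positive for 89.8% of them (50.2% of all genes). Of the 903 that were lower, 99.1% were lower in the Derlin-1 line with 4PBA (54.8% of all genes). In the Derlin-2 line 61.4% of them were lower with vehicle (51.5% of all genes) and 84.9% with 4PBA (58% of all genes). A set of 580 genes had an unadjusted p under 0.05 and a higher level in the Derlin-2 line with vehicle. Of these 51.6% were higher in that line with 4PBA (42% of all genes) and 61.9% in the Derlin-1 line without it (48.7%). Of a like set of 562 lower genes, 68.7% were lower in that line with 4PBA (58%) and 55% in the Derlin-1 line without it (51.3%). Across genes, the effects of the 2 lines, which share no arrays, correlated at r = 0.0951 without 4PBA (14652 genes) and 0.258 with it (14648 genes). Over both injections r was 0.23 (14647 genes), and 0.175 without both arrays that stood apart (14567 genes). The larger count of shared genes in that set went with a lower correlation. These are descriptions across genes, which are not independent.

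With 4PBA the direct test of the full set called none of the list members, and the list medians of the difference had the same sign as without it in these 6 lists: 0.25 for chaperones, 0.52 for ATF4 and CHOP genes, 0.94 for interferon genes, 0.71 for microglia, -0.20 for granule neurons and -0.16 for cholesterol genes. The sign turned for heat shock genes (-0.13 without 4PBA and 0.05 with it), oligodendrocyte markers (-0.04 and 0.15), vessels and meninges (0.01 and -0.02) and red blood cells (-0.09 and 1.65, 3 genes). All of these include the array with the label Derlin-1 KO 4PBA b. In the set of 11 arrays, which leaves out Derlin-2 KO vehicle 1, the oligodendrocyte median without 4PBA was 0.13, so that its sign did not turn. Without both arrays that stood apart, 5 of 15 ATF4 and CHOP genes were called with 4PBA (Ddit3, Cebpb, Trib3, Gdf15 and Fgf21; 0.548% of all genes were called higher) and 6 of 12 microglia markers. Fitted on the 12 arrays with 4PBA alone, 8 genes (0.0471%) were called, none of them above background on every array.

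Apart from Gpnmb, the genes that the full fit called and that were above background on every array compared, by the scanner's flag, differed mainly among the Derlin-2 arrays. Gm8013, a predicted gene, stood at -1.22 and -1.49 in the Derlin-2 vehicle controls and at -4.41 and -4.80 in the vehicle knockouts. Knockout vehicle 2 of the numbered Derlin-1 series had no usable Gm8013 spot and was left out of its fit. On the other arrays, it stood between -5.31 and -3.87, so the 2 controls were the high arrays. Its difference without 4PBA was 3.37 ± 0.41 (adjusted p = 0.00472). With 4PBA, Scml4 stood at -1.79 and -1.34 in the Derlin-2 controls and at -3.67 and -3.91 in the knockouts, with a difference of 2.61 ± 0.38 (adjusted p = 0.00892). Scml4 knockouts lay at the level of the Derlin-1 arrays of the same injection (-4.53 to -3.14), and the controls lay above it.

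Rec8, a meiotic cohesin subunit, stood at 2.93 and 2.89 in the Derlin-2 4PBA controls and at -0.75 and 1.08 in the knockouts, with a difference of 2.76 ± 0.47 (adjusted p = 0.0309). The Rec8 values in the Derlin-2 vehicle groups were 1.47 and 1.26 in controls and 1.51 and 0.81 in knockouts, below every Derlin-1 array in both genotypes. For Ntn4, a netrin of basement membranes, the Derlin-2 4PBA knockouts at -2.72 and -2.57 lay above their controls at -4.19 and -4.02, with a difference of -1.99 ± 0.23 (adjusted p = 0.0013), fitted without knockout 4PBA 2 of the numbered Derlin-1 series, which had no usable spot. Zscan2 (-1.55 ± 0.27, adjusted p = 0.0319) and Itgb1bp1 (-1.10 ± 0.19, adjusted p = 0.0309) had differences of the same sign. None of these 5 genes with 4PBA was called without it: the differences there were 0.50 for Scml4, 0.08 for Rec8, 0.15 for Ntn4, 0.10 for Zscan2 and 0.02 for Itgb1bp1. In the fit over all 24 arrays, no gene was called for the difference both without and with 4PBA.

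Among the 19 genes with a lower Derlin-1 effect in the 12 arrays without 4PBA, several were named after their values were seen. They included Sh3bgr (-1.88, adjusted p = 0.0211), the carbonic anhydrase Car9 (-1.42, adjusted p = 0.0136), the axon guidance ligand Sema3e (-1.45, adjusted p = 0.0233), the ephrin receptor Ephb2 (-0.99, adjusted p = 0.0444) and the metabotropic glutamate receptor Grm8 (-0.89, adjusted p = 0.0172).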

How the data were processed

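Total RNA was amplified, labelled with Cy3 and hybridised to single-colour Agilent arrays, per the labels' protocols. Signals were extracted with Agilent Feature Extraction 10.7.1.1, per the submitters' processing notes, and the deposited files hold a background-corrected intensity per spot. The authors' deposited series table holds the same intensity on a linear scale with no scaling between arrays: at probes with a single spot its log2 values differ from those of the array files by at most 1.74e-06. It served as an alternative. Array annotation in the file headers names build mm9, and no array coordinates are printed.

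From the intensity of 59305 spots an array, log2 values were taken minus each array's 75th percentile, spots of a probe were averaged, and outlier spots were left out. Of 56605 probes, 32994 were given a symbol by matching their accession to RefSeq (GRCm38.p6). The 38323 probes, with or without a symbol, that any group had well above background on both its arrays were retained, and the probe with the highest mean level stood for each of 17013 genes. limma 3.58.1 (R 4.3.3) fitted 12 group means over 24 arrays (12 residual degrees of freedom), two-sided, with Benjamini-Hochberg adjustment. A group left with 1 array was assumed to vary like the others. The script was tested on simulated data. Fold bounds use the dimmest signals well above background. Files held no mean signal column, so the normexp alternative used median signals with an offset of 50.

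The comparison, gene lists and marker lists were chosen with earlier results of these data known. Named genes were the Derlin genes, the 10 largest called differences in each direction above background by the scanner's flag on every array compared, the 10 shared genes in each direction with the largest smaller effect, the 10 largest effects of a line among genes called there and for the difference, and up to 4 members a list with the largest difference or any called. Other list members shown, and the genes said to be so, were chosen after their values were seen. Replicate numbers did not pair the samples: correlations of deviations ran from -0.234 to 0.548 in the numbered series, -0.046 to 0.202 in the Derlin-2 series and -0.0102 to 0.5 in the lettered series. Not measured here were Pycr1, Acat2, Hbb-bs, Steap4 and Emx1. Some genes of the fixed lists are not reported here.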

Additional observations from a re-analysis of the deposited data

Results flagged for a closer look

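Counts and genes are listed here because the effects of the 2 lines differed in the direct test over all 24 arrays. It called 14 genes without 4PBA, 32 with 4PBA and 23 over both injections, and 9, 14 and 12 of these were not well above background in at least 11 of the 12 groups. Without 4PBA, Gm8013 was the 1 called gene above background on every array compared by the scanner's flag (difference 3.37). With 4PBA the like genes were Rec8 (2.76), Scml4 (2.61), Itgb1bp1 (-1.10), Zscan2 (-1.55) and Ntn4 (-1.99). Over both injections Scml4 (1.55), Gpnmb (1.28) and Ntn4 (-0.92) were called. For the genes other than Gpnmb the groups that lay apart were Derlin-2 groups of 2 arrays. Groups of 2 arrays were too small to test single arrays as outliers.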

How the results depend on the processing

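Counts of genes with a difference of effects (14 without 4PBA, 32 with 4PBA, 23 over both) varied with the processing, the arrays used and the estimate of spread. In that order they were 3, 18 and 8 after normexp, 0, 2 and 0 with only probes above background on all arrays, 4, 9 and 0 with a trended robust fit, and 203, 50 and 261 with array weights. Fitting only the arrays compared gave 118 without and 8 with 4PBA. With the replicate number as a block the counts were 81, 25 and 98, although the numbers do not pair the samples. The numbered Derlin-1 series alone gave 9 without 4PBA and the lettered series alone 6, 18 and 10. Leaving out both arrays that stood apart gave 283, 124 and 646, and 3 shared genes in place of 0; the set of 11 arrays, chosen after seeing the data, gave 85. Leaving out 1 array at a time gave 10 to 349, 22 to 139 and 17 to 733, and 0 to 2 shared genes. The arrays that moved a count by over 1.5 times were Derlin-1 control vehicle 1 (24), Derlin-1 KO b (31), Derlin-1 KO 4PBA a (349 and, over both, 162) and b (349, 139 and 733), Derlin-2 control vehicle 1 (35) and 2 (30), Derlin-2 KO vehicle 1 (75 and, over both, 36), Derlin-2 control 4PBA 2 (56 with 4PBA) and Derlin-2 KO 4PBA 2 (50 with 4PBA and 35 over both). Quantile or median scaling, the deposited table, no filter and every probe kept all 3 counts within 1.5 times. So did a fixed term for each slide, with the numbered and lettered series sharing their knockout and 4PBA effects. Of list medians, 2165 moved by less than the spread and 58 by more. Signs were followed for the genes named by rule alone. They turned for Il1rapl2 over both injections without the filter (-0.29) and for Grxcr2 over both in the lettered series alone (0.18). Both were at background in most groups, so that their sign carries no information. Signs also turned for Npas4 without 4PBA in the lettered series alone (-0.027) and Ugt8a without 4PBA in the numbered series alone (0.021). The Derl3 difference without 4PBA turned (-0.15) wherever the array labelled Derlin-2 KO vehicle 1 was left out. With 1 array left out at a time the Derl3 difference ran from -0.15 to 1.09. Other list members turned too: of 15 chaperone genes 14 had a positive difference without 4PBA, and 10 did in the set of 11 arrays. The cause was not tested. Where limma gave a count of 0, 2182 and 1997 genes with the stricter filter, without 4PBA and over both, and 2307 with the trended fit, had an unadjusted p under 0.05. Red blood cell and choroid plexus genes were followed as list medians alone.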

Other observations

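Several fixed lists were not described above. Immediate early genes, which follow neuronal activity, had medians of -0.27 in the Derlin-1 line and -0.51 in the Derlin-2 line without 4PBA, and of 0.06 and 0.02 with it. Fos stood at 1.67 and 1.95 in the Derlin-2 vehicle controls and at -0.89 and -0.39 in the knockouts. The Derlin-1 controls without 4PBA stood at 2.52, 1.73, 3.13 and 2.42 and the knockouts at 0.43, 2.41, 0.09 and 1.68, which overlap in the numbered series. Neither Fos effect without 4PBA was called (-1.30, adjusted p = 0.116, and -2.45, adjusted p = 0.347, limma with Benjamini-Hochberg adjustment).

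Apold1, an endothelial early response gene, stood at -2.26 and -2.38 in the Derlin-2 vehicle controls and at -3.83 and -3.92 in the knockouts, an effect of -1.55 that was called over 24 arrays (limma adjusted p = 0.0308) and not over the 12 arrays without 4PBA (limma adjusted p = 0.208) or without Derlin-2 KO vehicle 1 as well (limma adjusted p = 0.229). Its Derlin-1 effect was -0.17, and the difference of 1.39 was not called (limma adjusted p = 0.11). With 4PBA, Apold1 stood at -2.72 and -2.45 in Derlin-2 controls and at -2.30 and -2.27 in knockouts.

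Cytosolic heat shock genes had medians of -0.14 and 0.06 without 4PBA, and none of 10 was called in either line. Hspa1b, an inducible HSP70, had a difference of -0.74 without 4PBA and of 0.67 with it (limma adjusted p = 0.192 and 0.937). Oligodendrocyte markers had medians of -0.23 and -0.22 over both injections and a median difference of 0.06. Vessel and meninges markers had a median difference of 0.01 without 4PBA. The 3 red blood cell markers had medians of 0.48 in the Derlin-1 line and -1.16 in the Derlin-2 line with 4PBA.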
